A study of Drosophila melanogaster with 10 samples.

Results

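Heat shock proteins and chaperones were followed as a set of 10 listed genes in Kenyon cells (KCs), the intrinsic neurons of the fly mushroom body. The genes were taken by name from the authors' table of 9655 genes and joined by FlyBase identifier to the read counts of every sample. Of the 10 listed genes, 9 were found, and Hsp22 was absent from that table. The 9 genes comprise 6 inducible chaperones (Hsp23, Hsp26, Hsp27, Hsp68, DnaJ-1 and stv), 2 constitutive members of the Hsp70 family (Hsc70-3 and Hsc70-4), and Hsp83, which is both abundant at rest and inducible.

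The study asked how loss of the serotonin transporter dSERT changes KC transcription. Both groups carried Mef2(P247)-gal4 driving nuclear GFP (UAS-nls.GFP), and the central brains of female flies, freed of optic lobes, were pooled and dissociated on the day of eclosion before GFP-positive cells were sorted. The mutant group was homozygous for dSERT16, an imprecise P-element excision that removes upstream DNA and a non-coding exon, and the control group for dSERT4, a background-matched excision that itself carries a smaller deletion but keeps transporter expression. The driver labels most KCs and favours the α/β and γ subtypes. Each genotype gave 5 SMART-seq samples. A title prefix that reads as a date is shared by 1 sample of each genotype, and the 5 prefixes are called collections 1 to 5 here. The study dropped 1 pair after a principal component analysis, and the authors' table holds columns for the pairs of collections 2 to 5.

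Heat shock proteins bind unfolded proteins. Heat shock factor (Hsf) drives transcription of the inducible genes when proteins misfold, and the encoded chaperones hold or refold their clients. Constitutive cognates carry the same activities in unstressed cells, where Hsc70-4 also serves clathrin uncoating at the synapse. Small heat shock proteins keep clients soluble without ATP, and the Hsp70 machines use ATP together with a J-domain partner, which brings the client, and a nucleotide exchange factor, which releases it. In Drosophila several small heat shock genes are also induced by ecdysone around metamorphosis.

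Between 18446396 and 69997102 reads were counted on genes per sample. SerT, the gene of dSERT, held 0.920 to 3.40 CPM in the dSERT4 samples and 0.230 to 0.791 CPM in the dSERT16 samples, without overlap. All 10 KC markers passed the filter on low counts, and their summed level, in CPM, which scale counts to a common library size, ran from 17293 to 20657 CPM across dSERT4 and from 16984 to 19676 CPM across dSERT16. Some markers listed for other cell types also held reads. The 8 glial markers of collection 1 summed to 464 CPM for dSERT4 and 223 CPM for dSERT16, against 874 to 1460 CPM in the other 8 samples, and alrm, moody and Tret1-1 were at 0 in every sample. Photoreceptor markers summed to 120 to 201 CPM with ninaA and Arr2 at 0. Of that sum norpA alone held 115 to 197 CPM, and no other photoreceptor marker passed 6.89 CPM. Markers of fat body and hemocytes summed to 6.95 to 45.2 CPM, of which apolpp alone held 5.91 to 44.0 CPM. Markers of other neurons (Tdc2 at 0) summed to 52.2 to 95.4 CPM in both samples of collection 2 and in dSERT16 of collection 4, and to 14.1 to 22.2 CPM elsewhere. The high sums came from ple, at 27.9 to 77.4 CPM in those samples against 0.403 to 11.5 CPM elsewhere. Gad1 held 6.44 to 20.1 CPM and VGlut 1.36 to 5.20 CPM over all samples. Muscle markers summed to 1.21 to 7.13 CPM. A gene whose exons are all shared with another gene is also counted as 0, and this was not checked for the markers at 0. Their 0 is thus no sign of absent transcripts. In such bulk samples fewer cells of a type and less RNA per cell cannot be told apart.

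Several chaperone transcripts were among the most abundant in the sorted cells. Levels of different genes were compared in the authors' TPM, which divide by transcript length and exist for collections 2 to 5. The 9 genes together made up 1.47% to 2.51% of all TPM in the dSERT4 samples and 1.19% to 1.81% in the dSERT16 samples. Hsp26, a small heat shock protein, stood highest, at 6551 ± 1874 TPM (SD, n = 4) in dSERT4 and 4893 ± 1095 TPM (SD, n = 4) in dSERT16. It ranked 1 to 3 of the 9655 genes in the dSERT4 samples and 3 to 13 in the dSERT16 samples.

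Hsp83, the fly Hsp90, followed at 4069 ± 1296 TPM (SD, n = 4) in dSERT4 and 3668 ± 1021 TPM (SD, n = 4) in dSERT16. Hsc70-4 stood at 2892 ± 141 TPM (SD, n = 4) in dSERT4 and 2764 ± 233 TPM (SD, n = 4) in dSERT16. The sample ranges of Hsp26 and Hsp83 overlapped in each genotype, as did those of Hsp83 and Hsc70-4, so this order was not beyond the spread. Within each genotype all 3 lay above every sample of the next gene, Hsp23, at 1645 ± 646 and 1392 ± 430 TPM (SD, n = 4 each) in dSERT4 and dSERT16.

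Hsp68, Hsp27 and DnaJ-1 had dSERT4 means of 974, 722 and 655 TPM and dSERT16 means of 760, 562 and 613 TPM, with ranges that overlapped between neighbours. The lowest levels belonged to stv, at 258 ± 34.5 TPM (SD, n = 4) in dSERT4 and 356 ± 40.8 TPM (SD, n = 4) in dSERT16, and to Hsc70-3, at 225 ± 23.3 and 205 ± 16.1 TPM (SD, n = 4 each). The stv and Hsc70-3 ranges overlapped in dSERT4 and were separate in dSERT16.

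**Figure D1:**
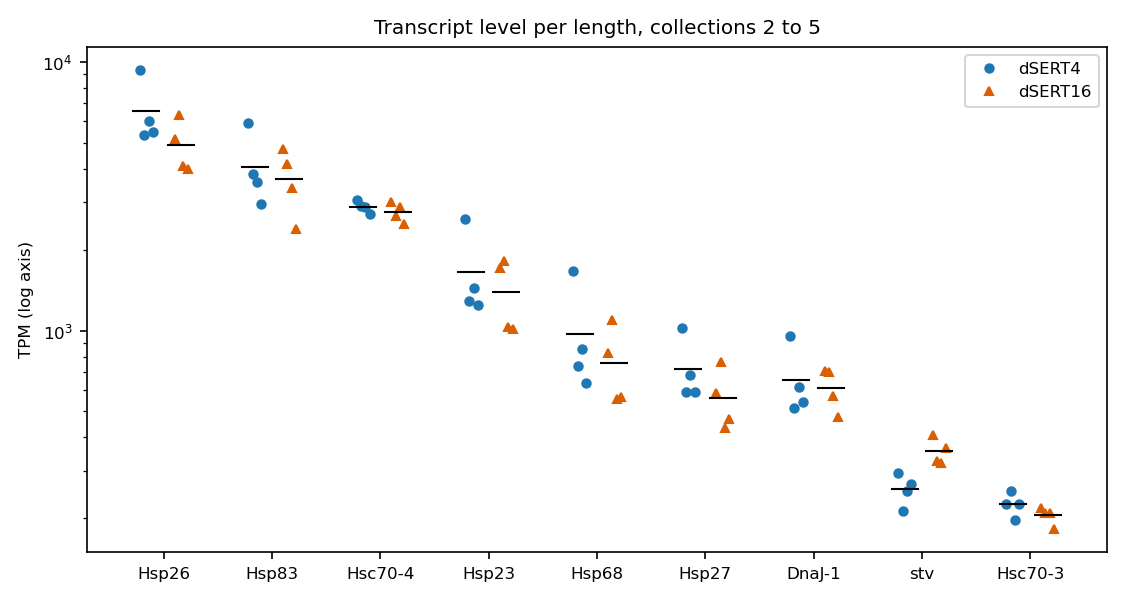
Level of each chaperone gene in the authors' TPM (log axis) for the 4 dSERT4 samples (circles) and the 4 dSERT16 samples (triangles) of collections 2 to 5, left to right within each cluster, with bars at the group means. Hsp26 and Hsp83 are high and scattered, Hsc70-4 is high and tight, and stv is the gene whose dSERT16 samples all lie above its dSERT4 samples.

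The small heat shock genes lie together on chromosome 3L of BDGP6 (dm6). Hsp26 (FBgn0001225) lies on the reverse strand from 9376418 to 9377427, Hsp23 (FBgn0001224) on the forward strand from 9381882 to 9382765, and Hsp27 (FBgn0001226) on the forward strand from 9384063 to 9385694. Hsp22 (FBgn0001223), from 9372931 to 9374964 on the forward strand, held 0 reads in all 10 samples. All of its 1900 exonic bases are shared in the annotation with CG4456 on the same strand, which held 0 to 7 reads. Reads on bases shared by both genes are counted for neither, so the level of Hsp22 could not be measured and its 0 is no sign of absent transcription.

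The small heat shock genes varied widely between samples of the same genotype. From here on levels are CPM scaled over all 10 samples, given for collections 1 to 5 in that order. Hsp23, a cytosolic small heat shock protein, stood at 291, 553, 262, 298 and 264 CPM in dSERT4 and at 127, 369, 374, 224 and 218 CPM in dSERT16. Hsp26 stood at 1738, 2262, 1249, 1424 and 1330.2 CPM in dSERT4 and at 619, 1271, 1491, 1014 and 986 CPM in dSERT16. Hsp27, a small heat shock protein found in nuclei, stood at 279, 401, 222, 262 and 230.4 CPM in dSERT4 and at 83.8, 233, 289, 173 and 188 CPM in dSERT16. For all 3 genes the dSERT4 sample of collection 2 was highest, the dSERT16 sample of collection 1 was lowest, and the genotypes overlapped. Over both genotypes together, the highest sample was 4.37, 3.65 and 4.78 times the lowest for Hsp23, Hsp26 and Hsp27. The ranges within 1 genotype were narrower. Of the exonic bases of Hsp27, 3.00% overlap CR43483 on the other strand, and the counts did not use strand.

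Hsp68 (FBgn0001230), a heat-inducible Hsp70 protein, lies on the reverse strand of 3R from 24055080 to 24057310, with 0.583% of its exonic bases shared with genes on the other strand. It stood at 595, 893, 379.8, 446 and 342 CPM in dSERT4 and at 205, 450.5, 568, 304 and 308 CPM in dSERT16. The pattern was that of the small heat shock genes, with the same highest and lowest samples, overlapping genotypes and a 4.35-fold range.

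The partners of Hsp70 differed from each other. DnaJ-1 (FBgn0263106), a J-domain protein that activates Hsp70, lies on the reverse strand of 3L from 5750029 to 5752189. It stood at 411, 493, 256, 311 and 280.5 CPM in dSERT4 and at 222, 374, 352, 301 and 253 CPM in dSERT16, again highest in dSERT4 of collection 2 and lowest in dSERT16 of collection 1, over a narrower 2.22-fold range. The genotypes overlapped.

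The gene stv (starvin, FBgn0086708) encodes a BAG-domain nucleotide exchange factor of Hsp70 and lies on the forward strand of 3L from 13477541 to 13483515. It stood at 398, 424, 294, 355 and 386 CPM in dSERT4 and at 329, 599, 455, 473 and 534 CPM in dSERT16. Here dSERT16 of collection 2 was highest and dSERT4 of collection 3 lowest, a 2.04-fold range. In each of collections 2 to 5 the dSERT16 sample was above its dSERT4 partner, and all 4 dSERT16 samples lay above all 4 dSERT4 samples. In collection 1 the dSERT16 sample was the lower, and with it the genotypes overlapped.

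Hsp83 (FBgn0001233), which matures kinases and other signalling proteins, lies on the forward strand of 3L from 3192969 to 3197059 and shares 0.507% of its exonic bases with CG14966 on the other strand. It stood at 5006, 5834, 3605, 3421 and 2899 CPM in dSERT4 and at 2646, 4739.8, 3979, 3395 and 2387 CPM in dSERT16. The highest sample was dSERT4 of collection 2 and the lowest dSERT16 of collection 5, a 2.44-fold range with overlapping genotypes.

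The constitutive genes varied least. Hsc70-3 (FBgn0001218), the BiP chaperone of the endoplasmic reticulum (ER), lies on the reverse strand of the X chromosome from 11801696 to 11807117 and stood at 330.1, 295, 317, 249 and 293 CPM in dSERT4 and at 233, 290.2, 264, 279 and 241 CPM in dSERT16. Hsc70-4 (FBgn0266599), the main cytosolic cognate, lies on the forward strand of 3R from 15242687 to 15246614 and stood at 2379, 2882, 2644, 2659 and 2552 CPM in dSERT4 and at 2469.8, 2896, 2452, 2777 and 2388 CPM in dSERT16. The ranges were 1.42-fold and 1.22-fold, and the genotypes overlapped for both.

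**Figure D2:**
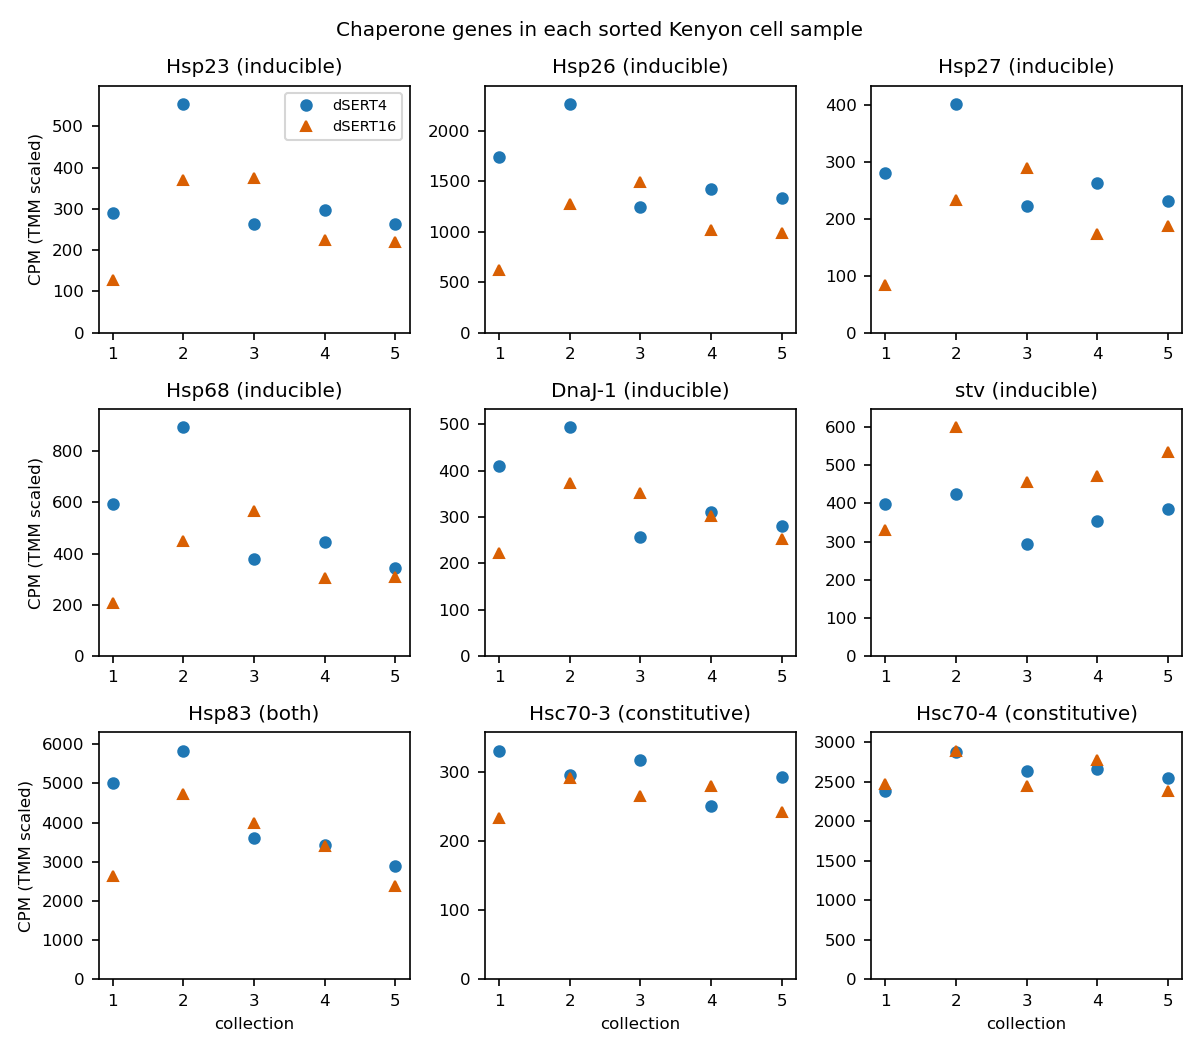
CPM of each of the 9 chaperone genes (vertical axes from 0) by collection, with dSERT4 as circles and dSERT16 as triangles, 1 sample per point. Hsp23, Hsp26, Hsp27, Hsp68 and DnaJ-1 peak in dSERT4 of collection 2 and are lowest in dSERT16 of collection 1, stv is higher in dSERT16 in collections 2 to 5, and Hsc70-4 stays between 2379 and 2896 CPM.

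Inducible and constitutive genes thus differed in how far they moved. The SD of log2 CPM over the 10 samples was 0.56 for Hsp23, 0.51 for Hsp26, 0.60 for Hsp27, 0.60 for Hsp68, 0.35 for DnaJ-1, 0.31 for stv and 0.41 for Hsp83, against 0.17 for Hsc70-3 and 0.11 for Hsc70-4. Among 2141 genes with a mean of at least 100 CPM, whose median SD was 0.15, the 6 inducible genes and Hsp83 ranked between the 94.2nd and the 99.1st percentile. Hsc70-3 ranked at the 58.9th and Hsc70-4 at the 15.1st percentile. These ranks describe the chosen genes and were not tested. Without the dSERT4 sample of collection 2 and the dSERT16 sample of collection 1, the ranges of Hsp23, Hsp26, Hsp27 and Hsp68 shrank to 1.71-fold, 1.76-fold, 1.67-fold and 1.95-fold, and the percentiles of the 6 inducible genes and Hsp83 became 90.6 to 97.7. Without the pair of collection 1 these percentiles were 96.2 to 99.2, and without that of collection 2 they were 92.3 to 99.0.

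The mean of the 6 inducible genes, each taken relative to its own mean over all samples, ran from -0.91 log2 units in dSERT16 of collection 1 to 0.74 in dSERT4 of collection 2, a range of 1.65. The range was 1.29 for Hsp83 and 0.28 for the mean of Hsc70-3 and Hsc70-4. Of the 9 genes, 6 were highest in dSERT4 of collection 2 (Hsp23, Hsp26, Hsp27, Hsp68, DnaJ-1 and Hsp83), as were 11.7% of the genes with at least 100 CPM. In dSERT16 of collection 1, 6 were lowest (Hsp23, Hsp26, Hsp27, Hsp68, DnaJ-1 and Hsc70-3), as were 11.7% of those genes.

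**Figure D3:**
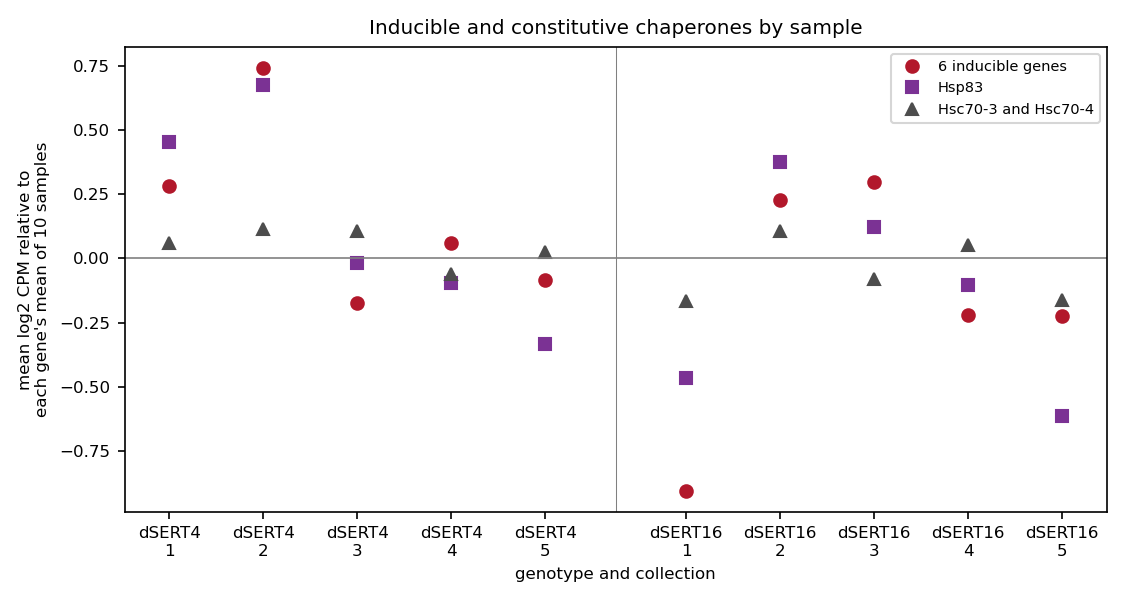
Mean log2 CPM of the 6 inducible genes (circles), Hsp83 (squares) and the mean of Hsc70-3 and Hsc70-4 (triangles) relative to each gene's mean of 10 samples, by genotype and collection. The inducible mean runs from -0.91 in dSERT16 of collection 1 to 0.74 in dSERT4 of collection 2, and the constitutive mean stays between -0.16 and 0.12.

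The comparison of the genotypes on the 4 pairs asks whether chaperone expression differed between dSERT16 and dSERT4. Loss of dSERT and other differences between these alleles cannot be told apart in it. The study concludes that part of the expression change in dSERT16 flies came from the genetic architecture of that mutant. By the quasi-likelihood test of edgeR, adjusted over all genes after Benjamini and Hochberg, 43 of 8690 genes passed an adjusted p of 0.05, which is 0.495% (23 higher in dSERT16, 0.265%, and 20 lower, 0.23%). None of the 9 chaperone genes was among them. At an unadjusted p under 0.05 the count was 1 of 9, stv, against 7.01% of all genes, and DESeq2 called 1 of 9, again stv, against 1.42% of the genes it tested. Fitted log2 fold changes of dSERT16 over dSERT4 were negative for 8 of the 9, with a median of -0.12 against 0.00011 for all genes.

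The gene nearest to a call was stv, with mean CPM of 364 ± 54.7 across dSERT4 and 514 ± 65.2 across dSERT16 (SD, n = 4 each). Its log2 fold change was 0.50 (SE 0.12), with an adjusted p of 0.0870 by edgeR. Of all genes, 4.87% had genotypes that did not overlap in the 4 pairs, and in 2.49% it was dSERT16 that was higher, as for stv. With the collection as a block, the fit that pairs the samples, the log2 fold change of stv was 0.50 (SE 0.0711) and its adjusted p 0.00811, in a fit that called 0.621% of all genes. DESeq2 gave an adjusted p of 0.0233. Leaving out the dSERT4 sample of collection 2 gave 0.58 (SE 0.11, adjusted p = 0.0373), and omitting the filter on low counts an adjusted p of 0.00981, where 0.498% of all genes were called. With all 5 pairs, where 0.756% of genes were called, the log2 fold change was 0.36 (SE 0.14, adjusted p = 0.445), and 0.35 with the block (SE 0.11, adjusted p = 0.229). Over 16 alternatives the adjusted p ran from 0.00811 to 0.445 and the direction was kept.

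The other inducible genes had lower means in dSERT16, within the spread between samples. The log2 fold changes by edgeR were -0.40 for Hsp26 (SE 0.21, adjusted p = 0.805), -0.34 for Hsp27 (SE 0.21, adjusted p = 0.836), -0.34 for Hsp68 (SE 0.37, adjusted p = 0.940), -0.22 for Hsp23 (SE 0.31, adjusted p = 0.970) and -0.07 for DnaJ-1 (SE 0.20, adjusted p = 0.995). Without the dSERT4 sample of collection 2 the values for Hsp23, Hsp68 and DnaJ-1 changed sign, to 0.11, 0.07 and 0.18, and those of Hsp26 and Hsp27 shrank to -0.16 and -0.11. Hsp83 stood at -0.12 (SE 0.28, adjusted p = 0.994), Hsc70-3 at -0.10 (SE 0.09, adjusted p = 0.912) and Hsc70-4 at -0.03 (SE 0.08, adjusted p = 0.994). The small SE of the constitutive genes bounds their difference more closely than that of the inducible genes.

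**Figure D4:**
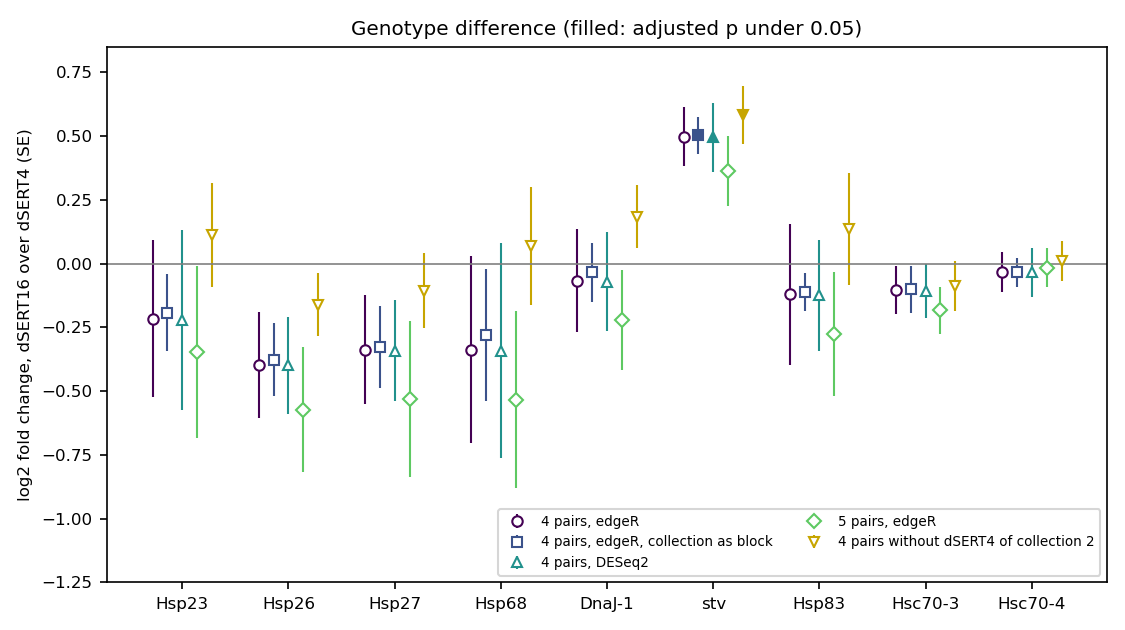
Log2 fold change of dSERT16 over dSERT4 with its SE for each chaperone gene under 5 fits, with filled symbols where the adjusted p was under 0.05. Filled symbols occur for stv only, in 3 of its 5 fits, and leaving out dSERT4 of collection 2 moves the fold changes of the other inducible genes upward.

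Within collections the genotype difference of the inducible genes was not uniform. In log2 CPM, dSERT16 minus dSERT4 was -1.20, -0.58, 0.51, -0.41 and -0.27 for Hsp23 in collections 1 to 5, and -1.49, -0.83, 0.26, -0.49 and -0.43 for Hsp26. It was -1.74, -0.78, 0.38, -0.60 and -0.30 for Hsp27 and -1.53, -0.99, 0.58, -0.55 and -0.15 for Hsp68. For DnaJ-1 it was -0.89, -0.40, 0.46, -0.04 and -0.15. These 5 genes were thus lower in dSERT16 in 4 of 5 collections and higher in collection 3. With Hsp83 and Hsc70-3 included, 7 of the 9 genes were lower in dSERT16 in 4 of 5 collections, as were 23.0% of all genes in 4 or 5.

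The difference was widest in collection 1, where Hsp23, Hsp26, Hsp27 and Hsp68 each lay more than 1 log2 unit lower in dSERT16, a shift seen in 0.841% of genes with at least 100 CPM. The all-gene median difference there was 0.00013. Summed markers of fat body and hemocytes were also lowest in this dSERT16 sample, at 6.95 CPM against 31.4 CPM in its dSERT4 partner. Most of both sums was apolpp, at 5.91 and 27.2 CPM, and no other marker of the list passed 3.41 CPM in these samples. The sums of the glial and KC markers were lowest in this dSERT16 sample too, at 223 and 16984 CPM. Its dSERT4 partner held 464 and 20451.5 CPM. The sums of the photoreceptor, other neuron and muscle markers were not lowest there. The part of these markers in the result was not tested. For stv the differences were -0.27, 0.50, 0.63, 0.41 and 0.47, for Hsp83 -0.92, -0.30, 0.14, -0.01 and -0.28, and for Hsc70-4 0.05, 0.01, -0.11, 0.06 and -0.10. With 1 sample of each genotype per collection, a difference in the genotype effect between collections could not be tested.

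**Figure D5:**
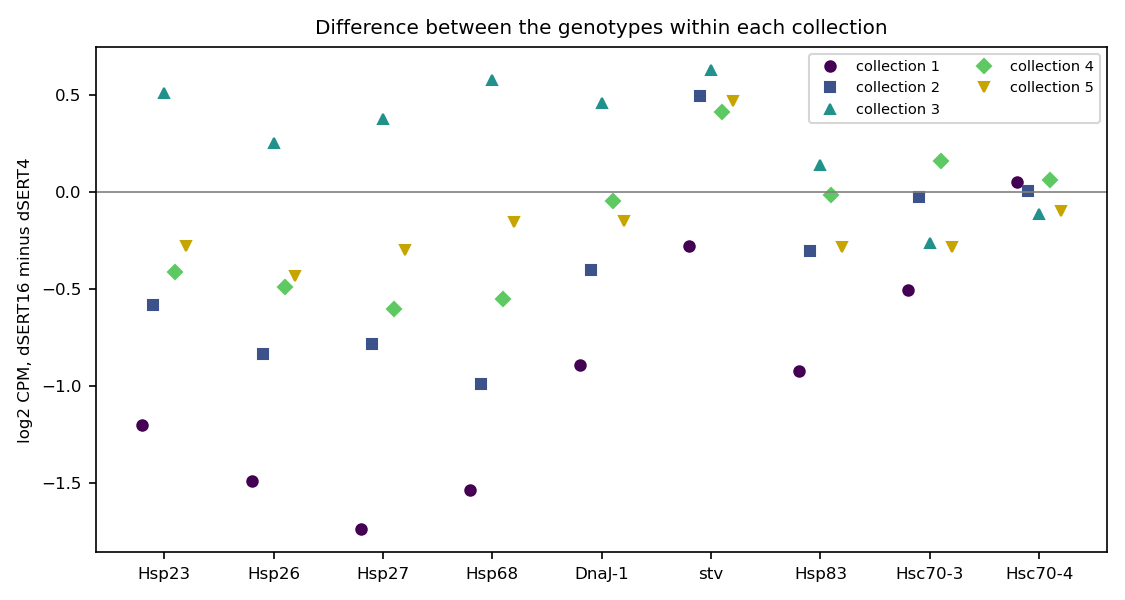
Difference in log2 CPM between the dSERT16 and the dSERT4 sample of each collection (1 point per collection) for the 9 chaperone genes. The points of Hsp23, Hsp26, Hsp27, Hsp68 and DnaJ-1 are lowest in collection 1 and above 0 in collection 3, those of stv are above 0 in collections 2 to 5, and those of Hsc70-4 stay between -0.11 and 0.06.

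The comparison of collections asks how the genes moved with the title prefix that both genotypes share. An edgeR quasi-likelihood F test of the collections over all 10 samples, with genotype as an additive term and Benjamini-Hochberg adjustment, called 26 of 8726 genes (0.298%). None of the 9 chaperone genes was called. At an unadjusted p under 0.05 there were 2, Hsp83 and Hsc70-4, against 11.7% of all genes, and DESeq2 called 1, Hsp83, against 6.28% of all genes. The fitted means of Hsp83 spanned 0.999 log2 units over the collections (adjusted p = 0.357), and those of Hsp23 1.18 (adjusted p = 0.447).

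Hsp83 was the least settled of these, with 5 of 17 alternatives below 0.05 and adjusted p from 3.48e-17 to 0.602. Without the pair of collection 1 its adjusted p was 0.0339, in a fit that called 0.0921% of all genes. It was 0.0110 without the dSERT16 sample of collection 1 alone, 0.00272 without the dSERT4 sample of collection 1 alone, and 0.000844 by DESeq2. Without a filter on low counts, 7 of the 9 genes were called, the 6 inducible genes and Hsp83, against 4.27% of all genes. Leaving out 1 sample leaves its collection with a single sample, which the fit assumes to vary like the others. The span of Hsp83 stayed between 0.98 and 1.02 log2 units throughout. Hsp23 was called without the dSERT4 sample of collection 3 (adjusted p = 0.0456) and stv without that of collection 1 (adjusted p = 0.0292). Hsc70-4, for which the collections took 86.2% of the sum of squares of log2 CPM (all-gene median 50.0%), spanned only 0.25 (adjusted p = 0.423).

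In dSERT4 all 9 chaperones but Hsc70-3 stood highest in collection 2. In dSERT16 this held for DnaJ-1, stv, Hsp83, Hsc70-3 and Hsc70-4. There Hsp23, Hsp26, Hsp27 and Hsp68 were highest in collection 3, at 374, 1491, 289 and 568 CPM. Their levels in dSERT16 of collection 2 were 369, 1271, 233 and 450.5 CPM. No all-gene share is given here for the highest collection within 1 genotype. Each collection was set against the other 4 in fits that share samples. For collection 2, 0 of 8726 genes (0.0%) passed the adjusted threshold by edgeR, 5.37% had an unadjusted p under 0.05, and this contrast was not run in DESeq2. All 9 chaperone genes were positive there, with a median of 0.52 log2 units against -0.01 for all genes. At an unadjusted p under 0.05 there were 5 of 9, namely Hsp23 at 0.82 (SE 0.28), Hsp83 at 0.63 (SE 0.20), DnaJ-1 at 0.53 (SE 0.17), stv at 0.33 (SE 0.15) and Hsc70-4 at 0.19 (SE 0.08). Their adjusted p, and those of the other 4 genes, were 0.756 to 0.975. The summed markers of other neurons were 70.8 and 52.2 CPM in dSERT4 and dSERT16 of collection 2, as given above. Of these sums ple alone held 57.4 and 27.9 CPM, and Gad1 held 11.1 and 20.1 CPM, against 6.44 to 18.3 CPM in the other samples. In dSERT16 of collection 4 the sum of these markers was highest, at 95.4 CPM. The mean of the 6 inducible genes, relative to their own means, was -0.22 log2 units in that sample. The part of these markers in this result was not tested.

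Collection 1 differed most from the others over all genes, with 84 genes called (0.963%), 66 lower and 18 higher. No chaperone gene was among them, and 0 of 9 had an unadjusted p under 0.05, against 15% of all genes. The median of the chaperones there was -0.23, and 8 of 9 were negative, from -0.69 for Hsp23 (SE 0.40, adjusted p = 0.467) to -0.02 for Hsp83. Of the 5 glial markers tested, 4 were called lower in collection 1, with a list median of -2.51. Their sum in that collection was 464 CPM in dSERT4 and 223 CPM in dSERT16. The part of the glial difference in the chaperone values was not tested. Against the other 4, collections 3, 4 and 5 had 0 genes called each (0.0%), with 2.6%, 5.15% and 7.15% of genes at an unadjusted p under 0.05. Among the chaperones, only Hsp83 in collection 5 was at an unadjusted p under 0.05, at -0.63 (SE 0.24, adjusted p = 0.665).

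The other Hsp70 genes were read apart, because their copies are nearly identical and only uniquely mapped reads were counted, so their separate values are uncertain. Summed over the 6 copies, they stood at 346, 356, 212, 297 and 195 CPM in dSERT4 and at 158, 188, 274, 214 and 177 CPM in dSERT16. As for Hsp68, dSERT4 of collection 2 was highest, dSERT16 of collection 1 lowest and dSERT16 above dSERT4 in collection 3. By edgeR on the 4 pairs none of the 6 was called between genotypes, with 2 positive, 4 negative and a median of -0.18. Of the 6, 3 had an unadjusted p under 0.05, against 7.01% of all genes. DESeq2 called 2, against 1.42% of all genes, as did edgeR with the collection as a block, against 0.621%. These were Hsp70Ba and Hsp70Bc in both.

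Single Hsp70 copies had differences of opposite sign. Hsp70Ba stood at 65.9, 50.9, 30.2, 41.7 and 26.2 CPM in dSERT4 and at 6.88, 9.22, 23.5, 15.7 and 9.67 CPM in dSERT16, without overlap in all 5 collections. In the 4 pairs alone, 4.87% of all genes had genotypes without overlap. The log2 fold change of Hsp70Ba in the 4 pairs was -1.35 (SE 0.30), with an adjusted p of 0.0961 by edgeR, 0.0495 with the block and 0.000671 by DESeq2, within a range of 0.000671 to 0.313 over its alternatives. Hsp70Bc, named after its values were seen, stood at 8.39, 13.6, 6.21, 7.98 and 4.46 CPM in dSERT4 and at 11.5, 21.3, 25.1, 18.8 and 13.6 CPM in dSERT16. Its log2 fold change was 1.28 (SE 0.31), with an adjusted p of 0.101 by edgeR, 0.0337 with the block and 0.00392 by DESeq2, within a range of 0.00392 to 0.313. Whether reads were divided differently among the copies in the 2 genotypes was not tested.

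Of 38 tested genes in the other parts of the chaperone network, edgeR called 0 between genotypes and 0 between collections, against 0.495% and 0.298% of all genes. At an unadjusted p under 0.05 there was 1 between genotypes, CaBP1, and 5 between collections, against 7.01% and 11.7% of all genes. DESeq2 adjusted the p of 41 and 38 of these lists' genes. It called 0 between genotypes, against 1.42% of all genes, and 2 between collections, against 6.28%. The 2 called by DESeq2 were Hsp67Bc (adjusted p = 0.0219) and Hsc70Cb (adjusted p = 0.0117), an Hsp110-type exchange factor named after its values were seen. Hsf and the further small heat shock genes had 4 of 10 listed genes tested, with a median of -0.05. The largest value among these was -0.21 for Hsp67Bc (SE 0.30, adjusted p = 0.969), which lies in the same small heat shock cluster. Hsp67Bc stood at 22.1, 37.6, 18.5, 24.8 and 18.7 CPM in dSERT4 and at 7.71, 33.0, 24.7, 14.8 and 13.6 CPM in dSERT16, highest and lowest in the same samples as Hsp23. Hsf itself, the transcription factor, ranged from 133 to 189 CPM, with a log2 fold change of 0.04.

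Cytosolic cochaperones had 11 of 13 listed genes tested, 7 positive and 4 negative, with a median of 0.02, and the largest difference was -0.21 for the barely expressed Hsc70-1 (SE 0.79). The ER list, with 10 of 10 tested, had 8 negative and a median of -0.04. CaBP1, a protein disulfide isomerase, was its largest, at -0.38 (SE 0.18, adjusted p = 0.711). The mitochondrial list, with 5 of 6 tested, had all 5 positive, a median of 0.13 and Trap1, the mitochondrial Hsp90, largest at 0.15 (SE 0.12). The 8 CCT chaperonin subunits split 4 and 4, with a median of 0.02 and CCT7 largest at 0.24 (SE 0.18).

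The genes whose profile over the 10 samples, with genotype means removed, lay nearest to the mean of the 6 inducible chaperones were dpr16, Psc, DAT, CG9705 and Pgm1. Their root mean square differences from that mean were 0.149, 0.184, 0.187, 0.193 and 0.200 log2 units, against a median of 0.483 over all genes. All 6 inducible chaperones enter that mean, so their differences are not comparable with those of genes outside it. They were 0.044 for Hsp26, 0.144 for Hsp27, 0.149 for DnaJ-1, 0.154 for Hsp23 and 0.166 for Hsp68. For stv it was 0.249, larger than the 0.234 of Hsp83, which was not in the mean. Hsc70-3 and Hsc70-4 stood at 0.350 and 0.356, near the 0.382 that a gene without any change would have. The 5 nearest genes were expressed at means of 24.7 to 48.9 CPM, below each of the 9 chaperones.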

How the data were processed

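The authors aligned SMART-seq reads with STAR to BDGP6 (dm6) and deposited, for each of 10 samples, whole-number counts of uniquely mapped reads per gene without normalization. The column counted without regard to strand was used. STAR leaves out reads that overlap more than 1 gene (8.84% to 9.85% of reads per sample). A deposited table of 9655 genes gives the authors' TPM for 4 pairs, used for levels between genes and in no test. It also holds the authors' fold changes and p-values, which were not used. The STAR version is not given in the sources used here.

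Reads assigned to no gene were left out of library sizes. The test was edgeR 4.0.16 under R 4.3.3 (filterByExpr, minimum count 10, minimum total 15, TMM, robust glmQLFit) with Benjamini-Hochberg adjustment at 0.05, two-sided. The p-values measure the spread between these samples of pooled brains. SE is the absolute log2 fold change over the square root of F. Log2 CPM used a prior count of 2. The genotypes were compared in collections 2 to 5 without covariates, on the pairs the study kept, and the collections in all 10 samples with genotype as a term. The alternatives were DESeq2 1.42.0, its size factors in edgeR, other filters, the summed strand columns, all 5 pairs, the collection as a block, and leaving out samples. The spread without particular samples or collections was added after seeing the data. Python 3.11.15 was used for the figures.

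The members and gene lists were chosen with earlier results of these data known. The genes named are the 10 members, the called genes of each further chaperone list or, where none was called, its gene with the largest genotype difference, and the 5 genes nearest in profile to the inducible members. Hsp67Bb, Hop, l(2)tid and Trh were not matched by symbol. Positions come from an Ensembl annotation of BDGP6. Pairing rests on the shared title prefix and on the study's parallel dissociation of the genotypes. Deviations from the genotype means correlated between samples of 1 collection at 0.217, 0.104, 0.121, 0.0956 and 0.0546 for collections 1 to 5, against -0.0106, 0.0736, 0.0666, 0.0508 and 0.0674 for the highest correlation of each dSERT4 sample with a dSERT16 sample of another collection, which in collection 5 was the larger value. The scripts were tested on simulated counts with 200 changed genes. The genotype test recovered 66 of 84 changed 2-fold and 116 of 116 changed 4-fold, and called 8 unchanged genes. The collection test recovered 44 of 112 and 86 of 88, and called 6 unchanged genes. Every simulated gene had the same dispersion, and the genotype simulation held no collection differences. The recovery thus does not measure the power for the chaperone genes, whose spread differed from gene to gene.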

Additional observations from a re-analysis of the deposited data

Results flagged for a closer look

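In 36 groups of 4 or 5 samples (9 genes, 2 genotypes, the 4 pairs or all 5 collections), the gap between an extreme sample and its nearest neighbour was compared with the group's range by Dixon's criterion, which chance passes in about 1 of 20 groups. In 2 groups the criterion was passed, both for Hsp23 in dSERT4, and the groups share samples. In the 4 pairs the dSERT4 sample of collection 2 held 552 CPM of Hsp23 against 297 CPM in the next sample, a gap of 0.83 of the range, just past the 95% critical value for 4 samples. Over all 5 collections the levels were 553 and 298 CPM and the gap was again 0.83 of the range.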

How the results depend on the processing

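Between genotypes, 43 genes and 0 chaperones were called. The counts were 148 and 1 with DESeq2, 77 and 1 without a filter, 66 and 0 with all 5 pairs, 54 and 1 with the collection as a replicate block, 94 and 0 with the block and all 5 pairs, and 18 to 40 and 0 to 1 with samples left out in turn. The chaperone gained was stv each time, and the block changed no other call among the 9 genes (Hsp70Ba and Hsp70Bc, outside them, were gained). Leaving out 1 sample turned 9 log2 fold changes positive: Hsp23, Hsp68, DnaJ-1, Hsp83 and Hsc70-4 without dSERT4 of collection 2, DnaJ-1, Hsp83 and Hsc70-4 without dSERT16 of collection 5, and Hsc70-4 without dSERT16 of collection 3. The lowest and highest log2 fold change with a sample left out were -0.35 and 0.11 for Hsp23, -0.54 and 0.0705 for Hsp68, -0.18 and 0.18 for DnaJ-1, -0.275 and 0.14 for Hsp83, and -0.0784 and 0.0141 for Hsc70-4. The adjusted p of each of the 9 was at least 0.779. Between collections, 26 genes and 0 chaperones were called. The counts were 539 and 1 with DESeq2, 670 (4.27%) and 7 without a filter, 46 and 0 with at least 10 counts in every sample, 14 and 0 without the genotype term, 8 and 1 without collection 1, and 16 to 96 and 0 to 2 with samples left out in turn. The 7 chaperones called without a filter were the 6 inducible genes and Hsp83, with adjusted p of 3.48e-17 to 0.0328. The causes were not tested. The genotype and collection tests of Hsc70-3 and Hsc70-4 made no call in any alternative. The lowest count of the 9 genes in any sample was 3187 reads (Hsp27).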
